A study of Rattus norvegicus with 30 samples.

Results

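The transcripts of 9 enzymes and enzyme subunits of the tricarboxylic acid cycle were followed in rat hearts: Cs, Idh2, Idh3a, Idh3b, Idh3g, Ogdh, Dlst, Suclg1 and Mdh2. They were chosen by gene symbol, and every row that carried one of the 9 names was kept, which gave 17 rows in each of the 3 expression tables. The tables held 27408 rows of 23268 names at 8 weeks, 27383 rows of 23227 names at 21 weeks and 26553 rows of 22458 names at 78 weeks. The samples were whole hearts of untreated, inbred Fischer 344 rats from a breeding colony, all on one standard diet, with 5 females and 5 males each at 8 weeks (young), 21 weeks (adult) and 78 weeks (old). RNA of each heart was labelled with a single dye and hybridised to 1 Agilent rat array, so that 30 arrays stood for 30 rats.

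The tricarboxylic acid cycle runs in the mitochondrial matrix, where it oxidises acetyl-CoA to carbon dioxide and passes the electrons to the respiratory chain as NADH and FADH2. The heart covers most of its ATP demand by oxidising fatty acids, and their acetyl-CoA enters the cycle through citrate synthase, so cardiac muscle is rich in these enzymes. Citrate synthase (Cs) joins acetyl-CoA to oxaloacetate, and its activity is widely used as a measure of mitochondrial content. Idh3a, Idh3b and Idh3g encode the subunits of the NAD-linked isocitrate dehydrogenase, while Idh2 encodes the separate NADP-linked enzyme of the matrix. Ogdh and Dlst encode components of the 2-oxoglutarate dehydrogenase complex, Suclg1 the alpha subunit of succinyl-CoA ligase, and Mdh2 the mitochondrial malate dehydrogenase that returns oxaloacetate to the start of the cycle.

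The arrays reached the 9 genes through 19 probes of 60 bases, and several results below turn on which probe was read. The probes of Cs and Idh3b that lie across an intron, the unsaturated probe of Idh2 and the single probe of Mdh2 are shown whole, 5′ to 3′, because readings below use them. The test of Cs between ages rests on its brightest probe, which is not printed.
Cs: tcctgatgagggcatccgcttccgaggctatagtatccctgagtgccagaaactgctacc
Idh2: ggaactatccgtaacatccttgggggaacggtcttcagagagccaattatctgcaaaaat
Idh3b: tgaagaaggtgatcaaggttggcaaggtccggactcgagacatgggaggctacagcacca
Mdh2: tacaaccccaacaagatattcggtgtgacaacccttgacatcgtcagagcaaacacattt
In the rn3 build, as the scanner files placed them, the Cs probe covered chr7:1643387-1644782 on the plus strand, the Idh2 probe chr1:135958723-135958782 on the minus strand, the Idh3b probe chr3:117798575-117799161 on the minus strand and the Mdh2 probe chr12:22012856-22012915 on the minus strand. The genomic spans of 1396 bases for Cs and 587 bases for Idh3b were longer than the 60 bases of the probe, which places these probes over exon junctions. A brighter Cs probe lay at chr7:1652129-1652188 on the same strand.

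For 6 of the 9 genes (Cs, Idh3a, Idh3b, Idh3g, Ogdh and Suclg1) 1 further probe lay on the strand opposite to the brightest probe, and each of these 6 came from a 3′ end read. In 4 of the 6 pairs the probes shared a stretch of complementary bases, 18 for Idh3a, 29 for Idh3g, 44 for Ogdh and 47 for Suclg1. The stretches below show 30 bases of each such pair, the brightest probe first and the opposite probe second, with the bases that pair in capitals.
Idh3a brightest: gtgcaaaggttcCCAAGTGCTTGTATTTAT
Idh3a opposite: accagacagacaATAAATACAAGCACTTGG
Idh3g brightest: TTTGCTCAGTTTGTCTGTAGGACTCCCTTc
Idh3g opposite: aAAGGGAGTCCTACAGACAAACTGAGCAAA
Ogdh brightest: ATCAAGTCACAGATTCAAGACTAGGAGTAG
Ogdh opposite: CTACTCCTAGTCTTGAATCTGTGACTTGAT
Suclg1 brightest: GTTTTAGAATGTCCTAAATTGAGCTATTTT
Suclg1 opposite: AAAATAGCTCAATTTAGGACATTCTAAAAC
The brightest probe of each gene was well above background on all 30 arrays. The opposite probes were well above background on 30 arrays for Cs and Ogdh, on 24 for Idh3b, on 14 for Idh3g, on 1 for Idh3a and on none of the 30 for Suclg1. Each gene was therefore read from its brightest row, and the value of the first row listed under a name, which for several members was the opposite probe, was kept as an alternative. The brightest of the pair of Idh2 probes was saturated on 29 of 30 arrays, and the table row of Idh2 was the geometric mean of both probes. The brightest row of Cs was likewise the geometric mean of its brightest probe and the probe over the exon junction.

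All 8 cardiomyocyte markers (Myh6, Tnnt2, Tnni3, Actc1, Myl2, Myl3, Ryr2 and Pln) were well above background on every array. The 75th percentile of the processed signal, by which each array was scaled, ranged from 39.9 to 171, and between 17182 and 24290 spots of an array were well above background. The dimmest arrays were those of adult males, 39.9 to 105 against 82.7 to 123 for adult females. At 78 weeks female 4 and male 4 had the highest mean of the 9 enzymes in their groups, 0.26 and 0.17 above the group mean (log2). The libraries labelled female 2 and male 3 went against their labels in the Y-linked genes Ddx3y and Eif2s3y. Because the tissue was whole heart, a change in the share of a cell type and a change in RNA per cell cannot be told apart.

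**Figure D1:**
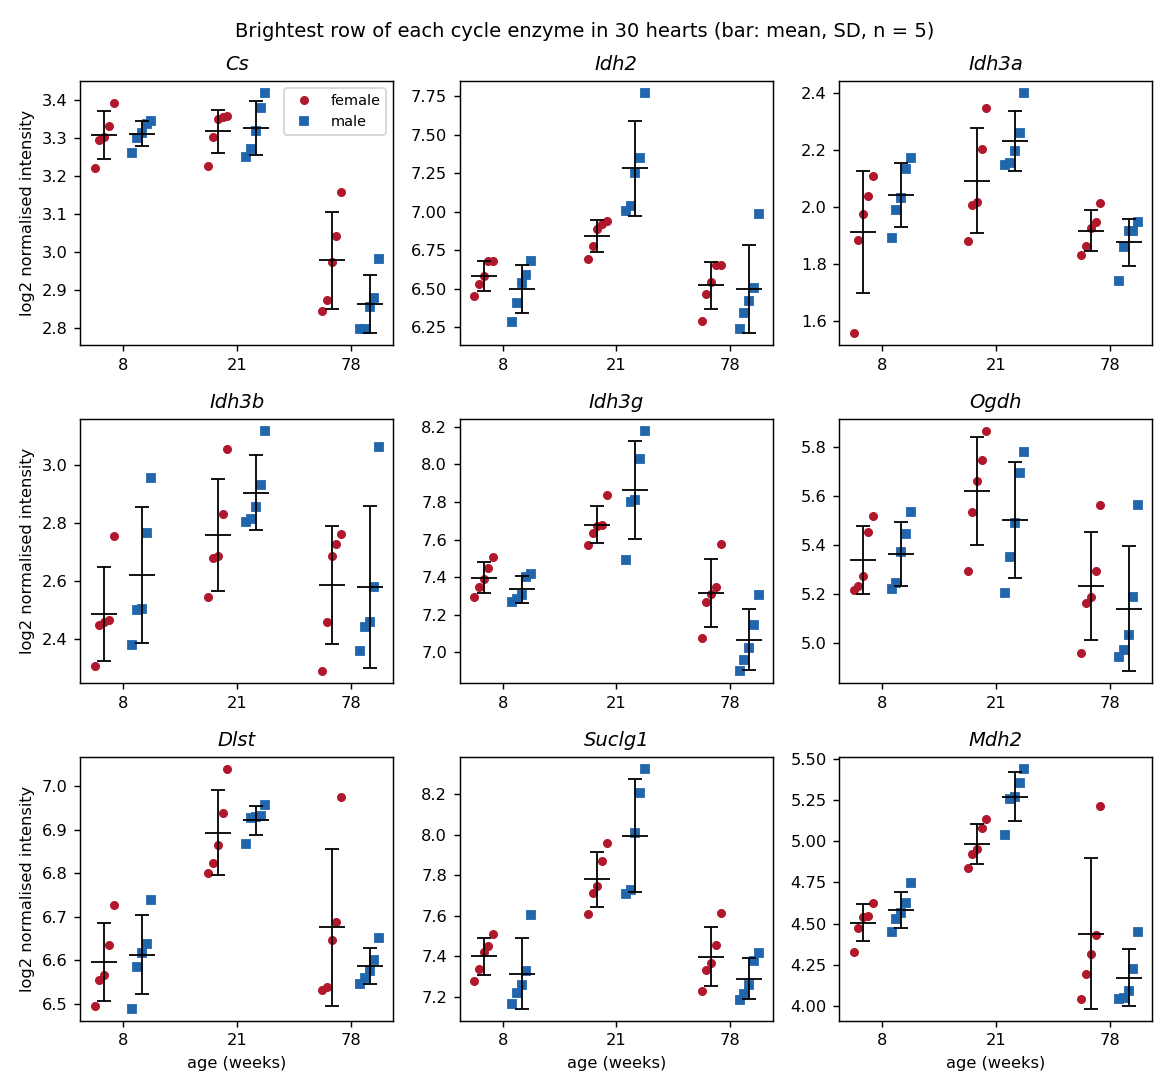
Table value of the brightest row of each enzyme (log2 of the signal over the array's 75th percentile) against age in weeks, with 1 point per heart, females and males apart, and bars for the mean and SD of 5 hearts. Old hearts lie low for Cs, adult males lie high for Idh2 and Mdh2, and the sexes overlap for every enzyme at 8 and 78 weeks.

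In young hearts the 9 enzymes were close between the sexes. Of the 9, 6 were higher in males and 3 in females, where 51.1% of all rows were higher in males, and the difference of the means (female minus male, log2) ran from -0.13 for Idh3b to 0.085. Their median was -0.017 against -0.0043 over all rows. None passed an adjusted p of 0.05 in limma, where 0.102% of all rows did, and none had an unadjusted p under 0.05, where 5.74% of all rows did. The methods' t-test, which is the study's analysis of variance applied to 2 groups, was run on the same values. It also called none of the 9 at an unadjusted p under 0.05, where 6.49% of all rows were called (0.0766% after adjustment). In no enzyme were the sexes free of overlap, as they were in 1.41% of all rows. Adjusted p ranged from 0.941 to 0.998.

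Citrate synthase, the step by which acetyl-CoA enters, varied little in young hearts. Its values in the 5 females were 3.22, 3.30, 3.30, 3.33 and 3.39, and in the 5 males 3.26, 3.30, 3.31, 3.34 and 3.35. The male values lay within the female range, and the means were 3.31 ± 0.062 and 3.31 ± 0.033 (SD, n = 5 each).

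In adult hearts the rows of Idh2 and Mdh2 were higher in males at the unadjusted level, and neither passed the adjustment over all rows. For 8 of the 9 enzymes the male mean was higher, with Ogdh the exception at 0.12 ± 0.16 (SE). This direction was that of the array as a whole, since 63.2% of all rows were higher in males, and the median difference of the 9 (-0.15) was close to that of all rows (-0.14). In limma 0 of 9 passed an adjusted p of 0.05 (0.0511% of all rows passed), and 2 of 9 had an unadjusted p under 0.05, both higher in males (15.9% of all rows did, 9.67% with the higher mean in males). The methods' t-test gave the same counts, 0 adjusted and 2 unadjusted.

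Idh2, whose enzyme makes NADPH in the matrix, had the widest gap between the sexes in the table, in a row that includes the saturated probe. The table values of the adult females were 6.69, 6.77, 6.89, 6.92 and 6.94, and those of the adult males 7.01, 7.03, 7.25, 7.35 and 7.77. Every male lay above every female. The sexes were free of overlap, in either direction, in 4.05% of all rows and in none of the other 8 enzymes. The means were 6.84 ± 0.10 in females and 7.28 ± 0.31 in males (SD, n = 5 each), a difference of -0.44 ± 0.16 (SE), with an adjusted p of 0.280 in limma and an exact two-sided permutation p of 0.0079, the smallest that 5 against 5 hearts can give. With each heart left out in turn the difference ran from -0.51 to -0.32.

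Since the row of Idh2 includes the saturated probe, the unsaturated probe was read alone, as log2 of the processed signal minus that of the 75th percentile of the array. In adult females it stood at 5.66, 5.75, 6.02, 6.09 and 6.13, and in adult males at 6.05, 6.17, 6.29, 6.47 and 6.51. Here the sexes overlapped. The difference was -0.37 ± 0.15 (SE), with an adjusted p of 0.113 in limma over all probes and an exact two-sided permutation p of 0.024.

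The table value of Idh2 was lower on brighter arrays. So was that of Suclg1, whose brightest probe was saturated on 0 of 30 arrays, and the part of saturation was not tested. After the mean of each sex and age was subtracted, the table value of Idh2 had a Pearson r of -0.86 (Spearman rho -0.86) with the 75th percentile of the array over the 30 hearts. Suclg1 had -0.80 (rho -0.75), Idh3g -0.49, Dlst -0.26 and Ogdh 0.33, while Cs, Idh3a, Idh3b and Mdh2 lay between -0.015 and 0.093. The unsaturated probe of Idh2 alone had an r of -0.15 (rho -0.027) over the 30 hearts, and an r of 0.62, -0.14 and -0.74 in young, adult and old hearts. These correlations are descriptions, because the 75th percentile also enters the value it is set against. As the adult males had the dimmest arrays, the value of Idh2 was also taken without the 3 dimmest of them, an alternative chosen after seeing the data, and the difference was -0.18 (adjusted p = 0.86 in limma) for the table row and -0.30 ± 0.19 (SE, adjusted p = 0.823 in limma) for the unsaturated probe, with 2 males left. The part of array brightness in the sex difference was not tested further.

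**Figure D2:**
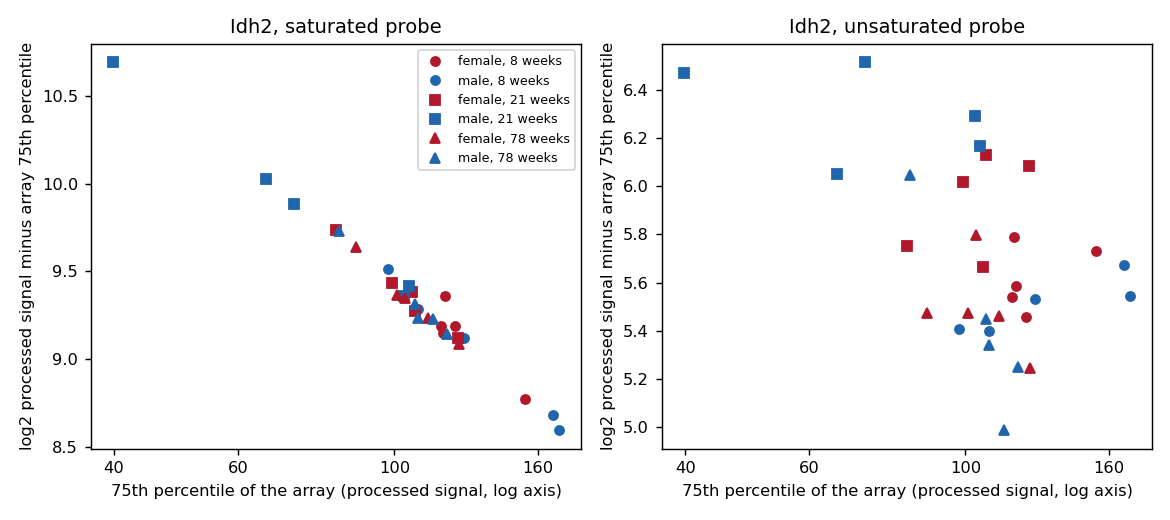
Both probes of Idh2 (log2 of the processed signal minus that of the 75th percentile of the array) against the 75th percentile of each array on a log axis, 1 point per heart. The saturated probe falls as arrays get brighter, and the adult males hold the dimmest arrays, down to 39.9.

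Mdh2, which closes the cycle, ran 4.84, 4.92, 4.95, 5.08 and 5.13 in adult females and 5.04, 5.25, 5.27, 5.35 and 5.44 in adult males. Of the 5 males 1 lay within the female range. The means were 4.98 ± 0.12 and 5.27 ± 0.15 (SD, n = 5 each), a difference of -0.29 ± 0.12 (SE) or 1.22-fold, with an adjusted p of 0.305 in limma and an exact two-sided permutation p of 0.024. Its r with the 75th percentile of the array was 0.012 over the 30 hearts, and 0.50, 0.27 and -0.45 in young, adult and old hearts, as a description.

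The other enzymes differed less in adult hearts. Suclg1 stood at -0.22 ± 0.16 (SE), Idh3g at -0.18 ± 0.15, Idh3b at -0.15 ± 0.13 and Idh3a at -0.14 ± 0.13, while Dlst (-0.028 ± 0.11) and Cs (-0.0094 ± 0.10) were near 0. The smallest adjusted p among these was 0.447. These directions depended on the scaling of the arrays. After quantile normalization 4 of the 9 enzymes were higher in males, after normexp background correction none of the 9, and without the 3 dimmest male arrays 7 of 9.

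In old hearts the mean of all 9 enzymes was higher in females, by 0.0050 to 0.27 on the log2 scale, and no single enzyme passed the test. The median difference was 0.093 against -0.0038 over all rows, 50.8% of which were higher in males. In limma 0 of 9 passed an adjusted p of 0.05, as did 0% of all rows, and 0 of 9 had an unadjusted p under 0.05 (5.65% of all rows did). The methods' t-test gave 1 unadjusted call, Idh3g, against 5.83% of all rows. The sexes overlapped in all 9, where 0.9% of all rows were free of overlap. The smallest adjusted p of the 9 was 0.856.

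The widest gaps were those of Mdh2 and Idh3g, the gamma subunit of the NAD-linked isocitrate dehydrogenase. Mdh2 ran 4.04, 4.20, 4.31, 4.43 and 5.21 in old females and 4.05, 4.05, 4.09, 4.22 and 4.45 in old males. The sexes overlapped except for female 4 at 5.21. The difference was 0.27 ± 0.21 (SE), with an adjusted p of 0.862 in limma and an exact two-sided permutation p of 0.286, and it was 0.074 without female 4.

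Idh3g ran 7.08, 7.27, 7.31, 7.35 and 7.58 in old females and 6.90, 6.96, 7.02, 7.15 and 7.30 in old males. All but 1 of the females lay above 4 of the males. The difference was 0.25 ± 0.12 (SE) or 1.19-fold, with an adjusted p of 0.856 in limma and an exact two-sided permutation p of 0.056. Without the libraries labelled female 2 (7.08) and male 3 (7.30), females ran from 7.27 to 7.58 and males from 6.90 to 7.15. The sexes then did not overlap, as in 6.94% of all rows and in none of the other 8 enzymes. The difference was 0.37 ± 0.12 (SE), with an adjusted p of 0.475 in limma and an exact two-sided permutation p of 0.0286, the smallest that 4 against 4 hearts can give. It was the 1 enzyme of 9 with an unadjusted p under 0.05 in limma without these hearts, where 8.4% of all rows had one.

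The count of 9 of 9 held without the libraries labelled female 2 and male 3, with differences of 0.027 to 0.38. It was 8 of 9 without female 4 and male 4 (chosen after seeing the data) and 7 of 9 after quantile normalization, and it turned to 0 of 9 after normexp background correction.

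**Figure D3:**
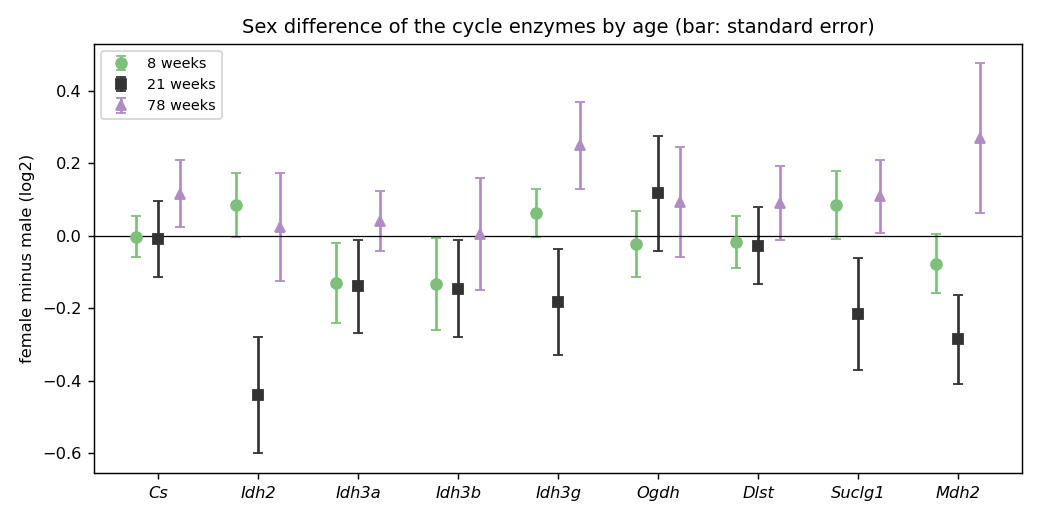
Difference between the sexes (female minus male, log2) for each of the 9 enzymes at 8, 21 and 78 weeks, with the standard error of limma as bars. Points at 21 weeks lie below 0 apart from Ogdh, points at 78 weeks lie above 0, and the widest is Idh2 at 21 weeks at -0.44, from the row that includes the saturated probe.

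The remaining steps of the cycle were read from a fixed list of 14 names, 13 of which were in the tables. In young hearts 5 of the 13 were higher in males and 8 in females, in adult hearts 12 were higher in males, with Aco1 the exception, and in old hearts all 13 were higher in females, with a median of 0.12. None passed the adjustment at any age. In adult hearts 2 of the 13 had an unadjusted p under 0.05, a share near the 15.9% of all rows, namely Mdh1, the cytosolic malate dehydrogenase, with -0.28 ± 0.12 (SE, adjusted p = 0.309 in limma), and Sucla2, a beta subunit of succinyl-CoA ligase, with -0.27 ± 0.11 (adjusted p = 0.296 in limma). In old hearts 0 of the 13 had an unadjusted p under 0.05. As for the 9 enzymes, the direction depended on scaling. In adult hearts 5 of the 13 were higher in males after quantile normalization and 1 of 13 after normexp background correction, and in old hearts 12 of the 13 were higher in females after quantile normalization and 2 of 13 after normexp.

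Among these steps Fh1, the fumarase, stood at -0.086 ± 0.11 in adult and 0.21 ± 0.15 in old hearts. The succinate dehydrogenase subunits Sdha, Sdhb, Sdhc and Sdhd lay between -0.37 and -0.0056 in adult and between 0.044 and 0.26 in old hearts. None of these had an unadjusted p under 0.05.

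The enzymes that feed the cycle with acetyl-CoA and oxaloacetate (5 of 6 names found) were higher in males for 4, 3 and 1 of the 5 at 8, 21 and 78 weeks. Those that fill and drain it, such as the aspartate aminotransferases and malic enzymes (8 names found), were higher in males for 3, 6 and 1 of the 8. None passed the adjustment, and after normexp the adult count turned to 1 of 5 and 1 of 8, and the old count to 4 of 5 and 5 of 8.

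Markers of cell types also differed in mean between the sexes. In young hearts 8 of 8 cardiomyocyte markers were higher in females and 5 of 5 fibroblast markers higher in males. Of these 5, 2 had an unadjusted p under 0.05 in limma, where 5.74% of all rows did. After quantile normalization 4 of 8 cardiomyocyte markers were higher in females, and after normexp 7 of 8. All 5 fibroblast markers remained higher in males after quantile normalization (4 of the 4 with a value after normexp). In adult hearts 7 of 8 cardiomyocyte markers were higher in males, with a median difference of -0.42, and their mean level per heart was 7.70 to 8.06 in females and 7.74 to 8.59 in males. Of the 8, 1 had an unadjusted p under 0.05 in limma, where 15.9% of all rows did. This marker, Ryr2, was higher in females (0.75 ± 0.30 SE, adjusted p = 0.292 in limma). The count higher in males was 3 of 8 after quantile normalization, 0 of 8 after normexp and 3 of 8 without the 3 dimmest male arrays. In old hearts 5 of 5 fibroblast markers were higher in males, with a mean level per heart of 3.77 to 4.50 in females and 4.21 to 4.70 in males, and all 5 remained higher in males after quantile normalization (4 of the 4 with a value after normexp). In adult hearts 2 of 5 fibroblast and in old hearts 2 of 8 cardiomyocyte markers were higher in males. At 8, 21 and 78 weeks, 4, 4 and 2 of 4 adipocyte markers were higher in males. Leukocyte markers were so for 3 of 4 at each age. The counts were 2, 3 and 2 of 3 for erythroid and 1, 2 and 4 of 4 for endothelial markers. For smooth muscle they were 2, 1 and 0 of 2. Of 3 erythroid markers 2 had an unadjusted p under 0.05 in limma at 8 weeks (5.74% of all rows did). The part of the markers in the enzyme differences was not tested.

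Whether the sex difference itself changed with age was tested on the scanner values of all 30 arrays. The study did not evaluate this, because its ages were in separate batches and it held that false positives might result. Comparisons with adult hearts also include the dim adult male arrays, whose part was not tested. None of the 9 enzymes passed an adjusted p of 0.05 in limma for any pair of ages, where 0.00244%, 0% and 0.00244% of all probes did for adult against young, old against young and old against adult. With the brightest probe of each gene the smallest adjusted p was 0.288. At the unadjusted level 2 of 9 enzymes, Idh2 being read from its saturated probe, had a p under 0.05, both for old against adult, where 13.5% of all probes did (2.56% for old against young). They were Idh3g, whose female minus male difference was 0.44 greater in old than in adult hearts (adjusted p = 0.290 in limma), and Mdh2, with 0.56 (adjusted p = 0.298 in limma). The unsaturated probe of Idh2 gave -0.48 for adult against young (adjusted p = 0.265 in limma) and 0.45 for old against adult (adjusted p = 0.363 in limma). Read by that probe, Idh2 had an unadjusted p under 0.05 in both comparisons, which makes 3 of 9 enzymes for old against adult and 1 of 9 for adult against young, where 17.8% of all probes did.

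Cs was lower in old than in young hearts, and it was the only one of the 9 enzymes to pass the test between these ages. Age was compared on the scanner values, averaged over the sexes, with the slide as a random block. The estimated correlation within a slide was -0.0425, and without the block the adjusted p of the brightest Cs probe was 0.00071 in limma. The ages were handled in separate batches, so age and batch cannot be told apart. Only 1 slide held hearts of both 8 and 78 weeks, and a comparison within it removes only the difference between slides.

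The brightest Cs probe stood at 6.11, 6.25, 6.27, 6.29 and 6.35 in young females and at 6.17, 6.19, 6.19, 6.23 and 6.31 in young males. In old females it stood at 5.88, 5.89, 5.96, 6.07 and 6.13, and in old males at 5.78, 5.78, 5.83, 5.83 and 6.06. All old hearts but female 4 lay below every young heart. The mean fell from 6.24 ± 0.071 to 5.92 ± 0.13 (SD, n = 10 each), a difference of -0.32 ± 0.056 (SE) or 1.24-fold, with an adjusted p of 0.00032 in limma. In adult hearts the mean was 6.24 ± 0.11 (SD, n = 10).

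The Cs probe over the exon junction, printed above, moved the same way. Its mean was 1.95 ± 0.074 in young and 1.69 ± 0.15 in old hearts (SD, n = 10 each), a difference of -0.26 ± 0.058 (SE) or 1.20-fold, with an adjusted p of 0.0025 in limma. The opposite-strand probe of Cs stood at 0.14 ± 0.073 (SE) with an adjusted p of 0.198 in limma. Both probes in the direction of the gene were thus lower in old hearts, and the opposite one did not pass the test.

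On the slide that held both ages, old minus young was -0.20 for the females and -0.45 for the males with the brightest Cs probe, and -0.15 and -0.40 with the probe over the junction. These were 2 pairs of hearts, still of separate batches. With each of the 20 hearts left out in turn the difference of the brightest probe ran from -0.34 to -0.30, and the adjusted p from 0.000168 to 0.00111. The call was lost after normexp background correction (-0.83, adjusted p = 0.0766) and with the slide as a fixed block (-0.33, adjusted p = 0.642), a fit that rests on the shared slide.

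**Figure D4:**
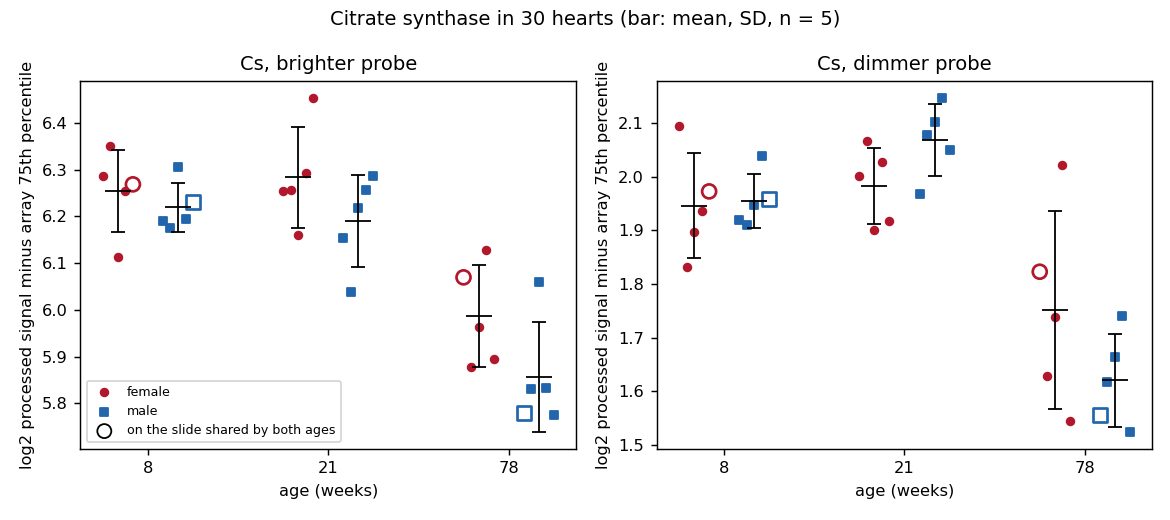
Both probes of Cs in the direction of the gene (log2 of the processed signal minus that of the 75th percentile of the array) against age in weeks, 1 point per heart, with bars for the mean and SD of 5 hearts and rings on the 4 hearts of the slide that held both ages. Old hearts lie low with both probes, with means over both sexes of 6.24 at 8 weeks and 5.92 at 78 weeks for the brightest probe.

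The count of 1 of 9 was near the background, since 10.9% of all probes passed (5.16% lower and 5.76% higher in old hearts). The median difference of the 9 enzymes was 0.024, that of all probes 0.12 and that of the 14886 probes well above background on every array -0.019.

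Mdh2 had a difference of -0.14 ± 0.10 (SE) between old and young hearts, with an adjusted p of 0.356 in limma. This value rested on old female 4. Without that heart it was -0.24 (adjusted p = 0.028 in limma), and without female 4 and male 4 it was -0.28 (adjusted p = 0.00651 in limma), alternatives chosen after seeing the data.

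The other enzymes did not pass. The NAD-linked isocitrate dehydrogenase subunits stood at 0.024 ± 0.069 (SE) for Idh3a, 0.13 ± 0.095 for Idh3b and -0.073 ± 0.079 for Idh3g. The components of the 2-oxoglutarate dehydrogenase complex stood at -0.064 ± 0.093 for Ogdh and 0.13 ± 0.060 for Dlst, and Suclg1 at 0.090 ± 0.082. Idh2 was saturated with its brightest probe at both ages, and its unsaturated probe gave -0.11 ± 0.10 with an adjusted p of 0.461 in limma.

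The adult hearts shared no slide with another age and were only described. Mdh2 had a mean of 5.94 ± 0.20 in adult hearts against 5.33 ± 0.11 in young and 5.19 ± 0.37 in old hearts (SD, n = 10 each). The mean of the adult hearts was also the highest of the 3 ages for Idh3a, Idh3b, Idh3g, Ogdh, Dlst, Suclg1 and the unsaturated probe of Idh2.

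Among the other genes of the pathway, 2 of the 13 remaining cycle steps were higher in old hearts and none lower, where 5.76% of all probes were higher and 5.16% lower. They were Idh1, the cytosolic isocitrate dehydrogenase, with 0.37 ± 0.062 (SE, adjusted p = 0.000131 in limma), and Ogdhl, an Ogdh-like gene, with 1.01 ± 0.27 (adjusted p = 0.013 in limma) and only 16 of 30 arrays well above background. Of the 5 entry enzymes 1 was lower, Dlat of the pyruvate dehydrogenase complex, with -0.30 ± 0.077 (adjusted p = 0.00897 in limma). Of the 8 that fill and drain the cycle, the aspartate aminotransferases Got1 (-0.33 ± 0.11) and Got2 (-0.29 ± 0.071) were lower, and the malic enzymes Me1 (0.46 ± 0.11) and Me2 (0.38 ± 0.12) were higher. After normexp none of these 7 passed, and the sign turned for Idh1 (-0.12) and Me1 (-0.10), and after quantile normalization all but Ogdhl passed and Suclg2, the other beta subunit of succinyl-CoA ligase, was lower in old hearts (-0.22, adjusted p = 0.0126 in limma).

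Markers of other cell types also moved between these ages. Of 5 fibroblast markers 2 were lower in old hearts (Col1a1 and Col3a1), and the mean of the 5 per heart was 5.73 to 6.02 in young and 4.61 to 5.72 in old hearts. Of 8 cardiomyocyte markers 1 was lower (Pln), with a mean of the 8 per heart of 8.16 to 8.66 and 8.31 to 8.77. Of the other lists, 1 of 4 adipocyte, 2 of 4 leukocyte and 1 of 3 erythroid markers were higher and 1 of 4 endothelial markers was lower. Of all probes 5.76% were higher and 5.16% lower. No marker of these lists was below background on all arrays, and their part in the difference of Cs was not tested.

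To see whether the subunits of one enzyme varied together from heart to heart, the mean of each sex and age was subtracted and 4 pairs were tested over all 30 hearts and over the 10 hearts of each age, 16 tests in all. Over the 30 hearts none passed on the table values. Ogdh with Dlst had a Pearson r of 0.23 (permutation p = 0.254, adjusted p = 0.390) and a Spearman rho of 0.13 (permutation p = 0.514, adjusted p = 0.597), and r was -0.057 without the 2 hearts farthest from the median of Ogdh, old female 4 and old male 4. Among the subunits of the NAD-linked isocitrate dehydrogenase, r was -0.065 for Idh3a with Idh3b (permutation p = 0.735, rho 0.13), 0.21 for Idh3a with Idh3g (permutation p = 0.210, rho 0.24) and 0.20 for Idh3b with Idh3g (permutation p = 0.293, rho 0.11). Without the 2 farthest hearts these were 0.064, 0.21 and 0.094. All adjusted p over the 4 pairs were at least 0.390. The scaling changed these calls. Ogdh with Dlst passed after quantile normalization (r 0.76, adjusted p = 0.00576) and after normexp (r 0.95, adjusted p = 0.001), and after normexp so did Idh3a with Idh3b (r 0.90, adjusted p = 0.0114), Idh3a with Idh3g (r 0.94, adjusted p = 0.0018) and Idh3b with Idh3g (r 0.92, adjusted p = 0.00461).

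In young hearts Idh3b and Idh3g varied in opposite directions. Pearson r was -0.80 (permutation p = 0.00882, adjusted p = 0.0353 over the 4 pairs), Spearman rho was -0.88 (permutation p = 0.00323, adjusted p = 0.0129), and r was -0.77 without the 2 farthest hearts. Idh3b was highest in male 3 (2.96) and male 4 (2.77), whose Idh3g stood at 7.28 and 7.27, and lowest in female 2 (2.31), whose Idh3g stood at 7.51. The pair did not keep this sign at other ages, with r of 0.35 in adult and 0.50 in old hearts, neither of which passed. The relation depended on scaling, since r was -0.28 after quantile normalization and -0.24 after normexp background correction. With slide means subtracted as well it was -0.78 (adjusted p = 0.0522), and with each heart left out the adjusted p ran from 0.0042 to 0.171.

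In old hearts Ogdh with Dlst reached r of 0.67 (permutation p = 0.0171, adjusted p = 0.0685, rho 0.52 with permutation p = 0.141), and it was 0.14 without female 4 and male 4, so the relation rested on these hearts. It also used the brightest Ogdh row, and a further Ogdh row on the same strand was lowest in these hearts. The r of that further row was not taken. The remaining tests by age had adjusted p of at least 0.202.

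All 36 pairs of the 9 enzymes are described without a test. Over the 30 hearts their median r was 0.22 (-0.30 to 0.79, 31 of 36 above 0), where the median r of the enzymes with the 11972 names well above background on all arrays was 0.039. The median of the 36 pairs was 0.30 (30 above 0) after quantile normalization and 0.94 (36 above 0) after normexp. By age the median was 0.26 in young, 0.018 in adult and 0.58 in old hearts, and 35 of 36 pairs were above 0 in old hearts. The pairs share arrays and scaling, so they are not independent.

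In old hearts the enzymes stood high or low together in single hearts. Read by their brightest rows, all 9 were above the mean of their group in female 4 and in male 3, and 8 of 9 in male 4, whereas in male 1 and male 5 none of the 9 was. A further Ogdh row, of a probe on the strand of the brightest, went the other way in female 4 and male 4. It stood at -2.09 in female 4 (-1.50 to -1.37 in the other old females). In male 4 it stood at -1.96 (-1.69 to -1.31 in the other old males). Without female 4 and male 4 the median r was 0.52 with 29 of 36 pairs above 0, and without the libraries labelled female 2 and male 3 it was 0.59 with 36 of 36. After quantile normalization it was 0.41 with 30 of 36, and after normexp background correction 0.97 with 36 of 36. As a description, the mean of the 9 had r of -0.53 with the 75th percentile of the array in old hearts. Single enzymes ran from -0.91 for Idh2 to 0.26 for Idh3b. The 75th percentile was 83.5 for male 4, the dimmest old array, 104 for female 4 and 107 for male 3. It was 108 for male 1 and 119 for male 5, and the part of array brightness was not tested.

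**Figure D5:**
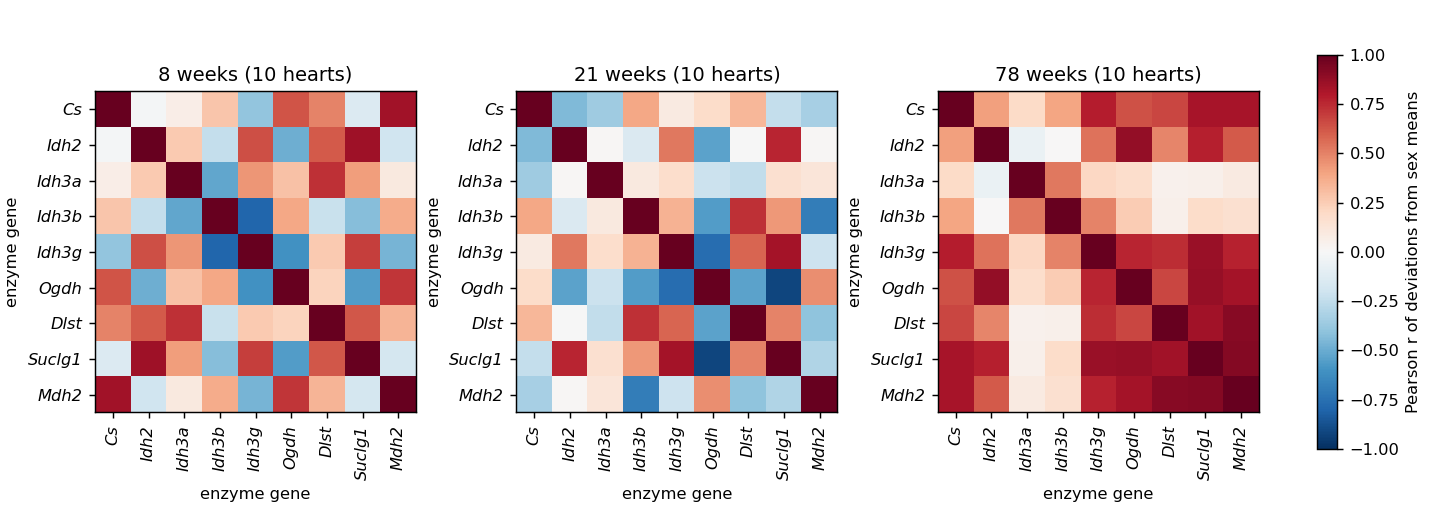
Pearson r between each pair of the 9 enzymes after the mean of each sex was subtracted, at 8, 21 and 78 weeks (10 hearts each), on a colour scale from -1 to 1. At 78 weeks 35 of 36 pairs lie above 0 with a median of 0.58, at 21 weeks 20 of 36 with a median of 0.018.

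Single enzymes differed in how closely they followed the others. Over the 30 hearts r with the mean of the other 8 was 0.69 for Dlst, 0.62 for Mdh2, 0.61 for Idh3g, 0.58 for Cs, 0.53 for Suclg1 and 0.46 for Idh2, and lower for Ogdh (0.23), Idh3a (0.13) and Idh3b (0.093). Among 11972 names outside the 9, the closest to their mean over the 30 hearts was Fh1, the fumarase of the same cycle, with r of 0.91. It was followed by Fhl2 (0.86), a LIM protein of heart muscle, Gapdh (0.86), an enzyme of glycolysis, Park7 (0.86), and Mlycd (0.86), which breaks down malonyl-CoA. For each of these names r was highest in old hearts. In young, adult and old hearts it was 0.77, 0.62 and 0.97 for Fh1 and 0.73, 0.38 and 0.95 for Fhl2. It was 0.73, 0.84 and 0.93 for Gapdh, 0.59, 0.89 and 0.94 for Park7 and 0.60, 0.68 and 0.94 for Mlycd. Other scalings and left-out hearts were not run for this likeness.

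Because some of the enzymes moved together, their promoters were searched for short motifs on both strands, from 250 bases before to 50 after the transcription start in RefSeq sequences of GRCr8. Of the 9 genes 8 had an entry. The ETS family core CCGGAAG was found in 4 of the 8 (Dlst, Idh3b, Idh3g and Mdh2) and in 8.75% of all 33469 promoters. The 30 bases around it are shown 5′ to 3′ along the gene, with the motif, or its reverse complement, in capitals.
Dlst: ggccggcctcaCTTCCGGttgttgccgggc
Idh3b: gaccgcgctcgCTTCCGGcgtcacttcccc
Idh3g: tgctacaggcaCCGGAAGgggacgtaggaa
Mdh2: agcagaccCCGGAAGtgggcaaagcgtaac
They lie at chr6:110489675-110489704 (plus strand), chr3:137939998-137940027 (minus strand), chrX:156675558-156675587 (minus strand) and chr12:26544062-26544091 (minus strand). Of the other motifs, CCAAT was found in 6 of 8 (37.5% of all promoters), the GC box GGGCGGG in 3 (22.7%), the YY1 site in Idh3g (0.675%), and the NRF1 site (4.25%) and AAGGTCA (4.61%) in none of the 8. CCGGAAG ends in the bases that begin AAGGTCA and the YY1 site, so matches to these could overlap. Among the genes with CCGGAAG, r with the mean of the other enzymes was 0.69 for Dlst and 0.093 for Idh3b, and a match describes the letters only.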

How the data were processed

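The authors scanned the arrays on a GenePix scanner and quantified the images with Agilent Feature Extraction, and the deposited tables hold 1 linear intensity per row and heart, scaled by the array's 75th percentile. Rows rebuilt from the deposited scanner intensity as the geometric mean of the probes of one design name matched 98.8% of the rows at 8 weeks within 0.002 on the log2 scale. Sex was compared within each age on log2 table values with limma 3.58.1 (R 4.3.3) over all rows, with Benjamini-Hochberg adjustment, and by exact permutation of 5 against 5 hearts for single genes. Age and the change of the sex difference with age were tested on log2 processed signals minus the 75th percentile, over 41012 probes. Fold changes are on these log2 scales. Correlations used 100000 permutations within groups. Statistics were checked on simulated data.

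The number of arrays limits the precision, and p-values between the sexes measure the spread between rats. In comparisons of ages the difference itself also holds batch and slide. The 9 enzymes and the lists of pathway and marker genes were chosen with earlier results of these data known. All 9 are named, each by its brightest row, as are the 5 names most like their mean and the remaining cycle steps, 1 of which is not reported here by name. Per the scanner files, same-numbered hearts of an age shared a slide. Every such pair deviated together at 78 weeks (r 0.199 to 0.338) but not at the other ages. Alternatives covered normalization, background, filters, blocks, rows, left-out hearts and the methods' t-test, which is the study's analysis of variance applied to 2 groups. Male columns at 21 weeks name the group and not the rat, so fits that need the rat used rebuilt values.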

Additional observations from a re-analysis of the deposited data

Results flagged for a closer look

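Among 102 groups of 5 hearts over the 17 rows, 4 held 1 heart far from the other 4 (a gap above 0.71 of the range of the group), where chance gives about 1 in 20. None of the 54 groups of brightest rows was among them. The dimmer row of Dlst stood at 4.15 (log2 table value) in old female 4, against 3.56 to 3.69 in the other old females. The opposite-strand row of Ogdh stood at -0.020 in adult female 5, against -0.47 to -0.35 in the other adult females, and at -1.64 in old male 4, against -0.077 to 0.067 in the other old males. A further Ogdh row, of a probe at chr14:87049438-87049497 on the strand of the brightest probe (rn3), stood at -2.09 in old female 4, against -1.50 to -1.37 in the other old females. The brightest Ogdh row went the other way, with its highest value among the old females in that heart (5.56). Female 4 and male 4 are the old hearts with the highest mean of the 9 enzymes in their groups.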

How the results depend on the processing

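Counts of enzymes that passed the test between the sexes stayed at 0 of 9 at each age under every alternative run, as did the count for the change of the sex difference with age. Of 270 values of single enzymes between the sexes 39 changed sign, and of 81 between the ages 12 did, with 3 calls changed.

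The scaling and background settings moved most. The median of all rows for female minus male at 21 weeks was -0.14 as reported, -0.031 after quantile normalization and -0.38 after normexp, and at 78 weeks it was 0.15 after normexp. The median of all probes between old and young hearts was 0.12 as reported, 0.0046 after quantile normalization and 0.37 after normexp. The median of the 9 enzymes at 21 weeks was 0.069 after quantile normalization and 0.25 after normexp, and at 78 weeks it was -0.21 after normexp. After quantile normalization the sign turned at 21 weeks for Cs (0.069), Idh3g (0.10), Dlst (0.22) and Suclg1 (0.084), and at 78 weeks for Idh2 (-0.047) and Idh3b (-0.027). After normexp it turned at 8 weeks for Ogdh (0.0089), at 21 weeks for Cs (0.30), Idh2 (0.093), Idh3a (0.27), Idh3b (0.20), Idh3g (0.25), Dlst (0.52), Suclg1 (0.19) and Mdh2 (0.22), and at 78 weeks for Cs (-0.18), Idh2 (-0.21), Idh3a (-0.20), Idh3b (-0.31), Idh3g (-0.096), Ogdh (-0.23), Dlst (-0.26), Suclg1 (-0.26) and Mdh2 (-0.073). The median signal without background subtraction turned Cs (0.00011) and Ogdh (0.041) at 8 weeks, Cs (0.019) and Dlst (0.097) at 21 weeks and Idh3b (-0.061) at 78 weeks. The first row of each name turned Idh3a (0.25), Idh3b (0.45), Idh3g (-0.13) and Ogdh (0.016) at 8 weeks, Cs (0.12) at 21 weeks and Suclg1 (-0.034) at 78 weeks. Without the 3 dimmest adult male arrays Idh3g (0.034), Ogdh (-0.11) and Suclg1 (0.063) turned at 21 weeks, and without female 4 and male 4 Idh3b (-0.020) at 78 weeks. Normexp was run with an offset of 50, where the 75th percentile of an array was 39.9 to 171. The cause was not tested.

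Between old and young hearts the count was 0 of 9 after normexp and 0 with the slide as a fixed block, and 2 (Cs and Mdh2) without female 4 and male 4. The sign turned after quantile normalization for Suclg1 (-0.012), after normexp for Idh2 (-0.32), Idh3a (-0.46), Idh3b (-0.42), Dlst (-0.46) and Suclg1 (-0.48), with the median signal for Idh3a (-0.012), and with the slide as a fixed block for Idh3a (-0.19), Idh3b (-0.055), Dlst (-0.037) and Suclg1 (-0.072). Idh2 by its unsaturated probe gave -0.11. For Ogdh with Dlst over all hearts, r was 0.76 after quantile normalization (adjusted p = 0.00576), 0.95 after normexp (adjusted p = 0.001) and -0.14 without adult male 2 and old female 4 and male 4. After normexp r of Idh3a with Idh3b was 0.90, where all 36 pairs lay between 0.87 and 0.98.

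With each heart left out in turn, the median difference of the 9 enzymes ran from -0.051 to 0.0058 at 8 weeks, from -0.22 to -0.10 at 21 weeks and from 0.033 to 0.14 at 78 weeks, and the count between old and young hearts was 1 to 2, with 2 without old female 4. In these fits the sign turned at 8 weeks for Cs (-0.024 to 0.019), Ogdh (-0.068 to 0.019) and Dlst (-0.051 to 0.014), at 21 weeks for Cs (-0.027 to 0.015), at 78 weeks for Idh2 (-0.041 to 0.14) and Idh3b (-0.050 to 0.12), and between old and young hearts for Idh3a (-0.022 to 0.045).

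With the replicate number as a block the counts were 0 of 9 and the medians -0.017, -0.14 and 0.092 at 8, 21 and 78 weeks, and no call changed. Same-numbered hearts correlated from -0.251 to 0.169 at 8 weeks and from -0.165 to 0.531 at 21 weeks, although they shared a slide at every age.

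Saturation of the brightest Idh2 probe and dim adult male arrays limit the values of Idh2, and the opposite-strand probes of Idh3a and Suclg1 were rarely or never well above background.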
